A study of Mus musculus with 12 samples.

Results

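Described here are 9 genes that brake the cell cycle or belong to the p53 pathway: the Cdk inhibitor genes Cdkn1a, Cdkn1b and Cdkn2c, the p53 gene Trp53, its antagonist Mdm2, and the p53 targets Bax, Ccng1, Sesn2 and Phlda3. They were taken by symbol from a deposited table of 13942 genes, and all 9 were found there. Each lay above the lowest value of the table in all 12 libraries. RNA sequencing was done on polyA RNA of retinal pigment epithelium (RPE), the pigmented layer behind the retina, from C57BL/6J mice. There were 4 groups of 3 libraries: wild type (WT) at embryonic stage E15.5, Sox9 conditional knockout (labelled Sox9.cKO, here cKO) at E15.5, WT at postnatal day 5 (P5) and cKO at P5. The design asks which genes differ in the conditional knockout before birth and after, and how they change with age in each genotype. No source used here gives the Cre line, the age at deletion or the deleted exons, or says whether replicates came from separate animals or pools, so p-values measure only the spread between these libraries.

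Cyclin-dependent kinases (Cdks), switched on by cyclins, drive cells through the division cycle. Inhibitor proteins bind them: p21 (Cdkn1a) and p27 (Cdkn1b) act on cyclin-Cdk complexes, while p18 (Cdkn2c) binds Cdk4 and Cdk6 directly. The transcription factor p53 is kept low by MDM2, a ubiquitin ligase that is itself a p53 target, and is controlled largely at the level of the protein. When p53 is active it raises Cdkn1a, Ccng1 (cyclin G1), Phlda3 (a PH-domain protein that restrains AKT), Bax (which opens the outer mitochondrial membrane in cell death) and Sesn2 (a sestrin that restrains mTORC1 and also answers to amino acid shortage). RPE cells leave the division cycle as the tissue matures, and Cdk inhibitors are part of that exit.

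p53 binds DNA as a pair of 10-base half-sites separated by up to 13 bases. RefSeq windows of 300 bases (250 before to 50 after a start site, GRCm38.p6) were found for all 9 genes, 11 windows in all, since Cdkn1a and Cdkn2c have 2 starts each. Only exact matches to the half-site letters were searched. The upstream start of Cdkn1a was the 1 member window with a full site by that rule. It was a pair of half-sites 12 bases apart at positions -73 to -42, where +1 is the start site. The 10 bases directly after the second of them, tgacatgttc, depart from the half-site letters at 1 base and were not counted. Which of these half-sites p53 binds as a pair was not tested. Such a full site stood in 24 of 32851 windows of all genes, or 0.0731%. The second start of Cdkn1a lies 2790 bases downstream. Single half-sites stood in the windows of Trp53, Mdm2, Bax and Ccng1, so that 5 of 11 member windows held at least 1, against 8.36% of all windows. The group was set by gene symbol, not by these matches. The stretches that held a match are shown. They are written 5′ to 3′ on the strand of the gene, with the half-sites, which match on both strands, in capitals.
Cdkn1a, chr17:29090891-29090952, plus strand: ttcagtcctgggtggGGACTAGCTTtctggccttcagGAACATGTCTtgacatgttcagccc
Trp53, chr11:69580269-69580308, plus strand: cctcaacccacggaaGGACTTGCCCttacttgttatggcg
Mdm2, chr10:117710920-117710959, minus strand: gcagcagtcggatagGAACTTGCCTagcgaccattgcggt
Bax, chr7:45467075-45467114, minus strand: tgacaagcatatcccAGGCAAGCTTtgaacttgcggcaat
Ccng1, chr11:40755447-40755486, minus strand: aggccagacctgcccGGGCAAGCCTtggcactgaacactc

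The windows of Cdkn1b, Cdkn2c, Sesn2 and Phlda3 held no half-site, which says only that these letters are not in those 300 bases. None of the 11 windows held the SOX core AACAAT on either strand, present in 10.7% of all windows, or the ATF4 composite letters TGATGCAA (0.895%) and TGATGAAA (1.02%). The Sesn2 window is shown in full because Sesn2 had the largest genotype difference of the 9 genes. Its capitals mark CCAAT and GGGCGG, searched on both strands (6 of 11 member windows against 37.4% of all for CCAAT, and 7 of 11 against 35.7% for GGGCGG). A match is a description of the letters, not a measured site.
Sesn2, chr4:132510407-132510706, minus strand: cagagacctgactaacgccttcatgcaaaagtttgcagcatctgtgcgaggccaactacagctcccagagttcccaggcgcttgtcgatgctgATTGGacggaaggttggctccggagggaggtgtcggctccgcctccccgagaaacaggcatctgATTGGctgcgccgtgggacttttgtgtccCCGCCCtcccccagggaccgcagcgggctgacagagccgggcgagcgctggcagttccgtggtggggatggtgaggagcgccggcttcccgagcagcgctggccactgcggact

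Values are quantile-normalised gene counts: every library was forced onto 1 distribution with a lowest value of 50 and a median of 367.4, so the depth behind a value is unknown. The P5 libraries were less alike than the E15.5 libraries. The median SD between replicates over the 13523 genes tested was 0.105 (WT) and 0.116 (cKO) on the log2 scale at E15.5, and 0.317 and 0.232 at P5. Of the RPE markers 12 were in the table, of which 10 or 11 lay above the lowest value at E15.5 and all 12 at P5. Markers of other tissues were present too. All 9 pericyte and mesenchyme markers were above the lowest value in every library. They summed to 343625 to 531295 at E15.5 and to 288401 to 656919 at P5. The 12 RPE markers summed to less, 24730 to 45568 at E15.5 and 115850 to 221868 at P5. The 9 skeletal muscle markers measured summed to 35631 to 69524 at E15.5 and to 14708 to 72266 at P5. The values of the 9 genes are thus those of mixed tissue. The summed value of the 14 photoreceptor markers was 700 to 732 at E15.5, which is at or near 50 for each gene. At P5 the WT libraries had sums of 3660, 11670 and 120582, and those of cKO 3690, 59025 and 26902. The 13 lens markers summed to 876 to 1636 at E15.5, to 2728, 6952 and 731 in WT at P5 and to 9846, 5943 and 11725 in cKO at P5. In mean log2 value at E15.5, the RPE markers did not overlap between genotypes (10.01 to 10.41 in WT and 9.27 to 9.67 in cKO). Nor did 11 retinal progenitor markers (7.32 to 8.03 in WT and 6.91 to 6.99 in cKO), while the other marker lists overlapped. In such bulk samples fewer cells of a type and less RNA per cell cannot be told apart. Sox9 itself was not lower in the libraries labelled cKO: it stood at 931.6 to 1156.2 in WT and 990 to 1034 in cKO at E15.5, and at 963.7 to 1499.5 in WT and 2135.7 to 2928 in cKO at P5. A gene count sums all exons, so this does not check the deletion, and cKO below means a library labelled cKO.

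**Figure D1:**
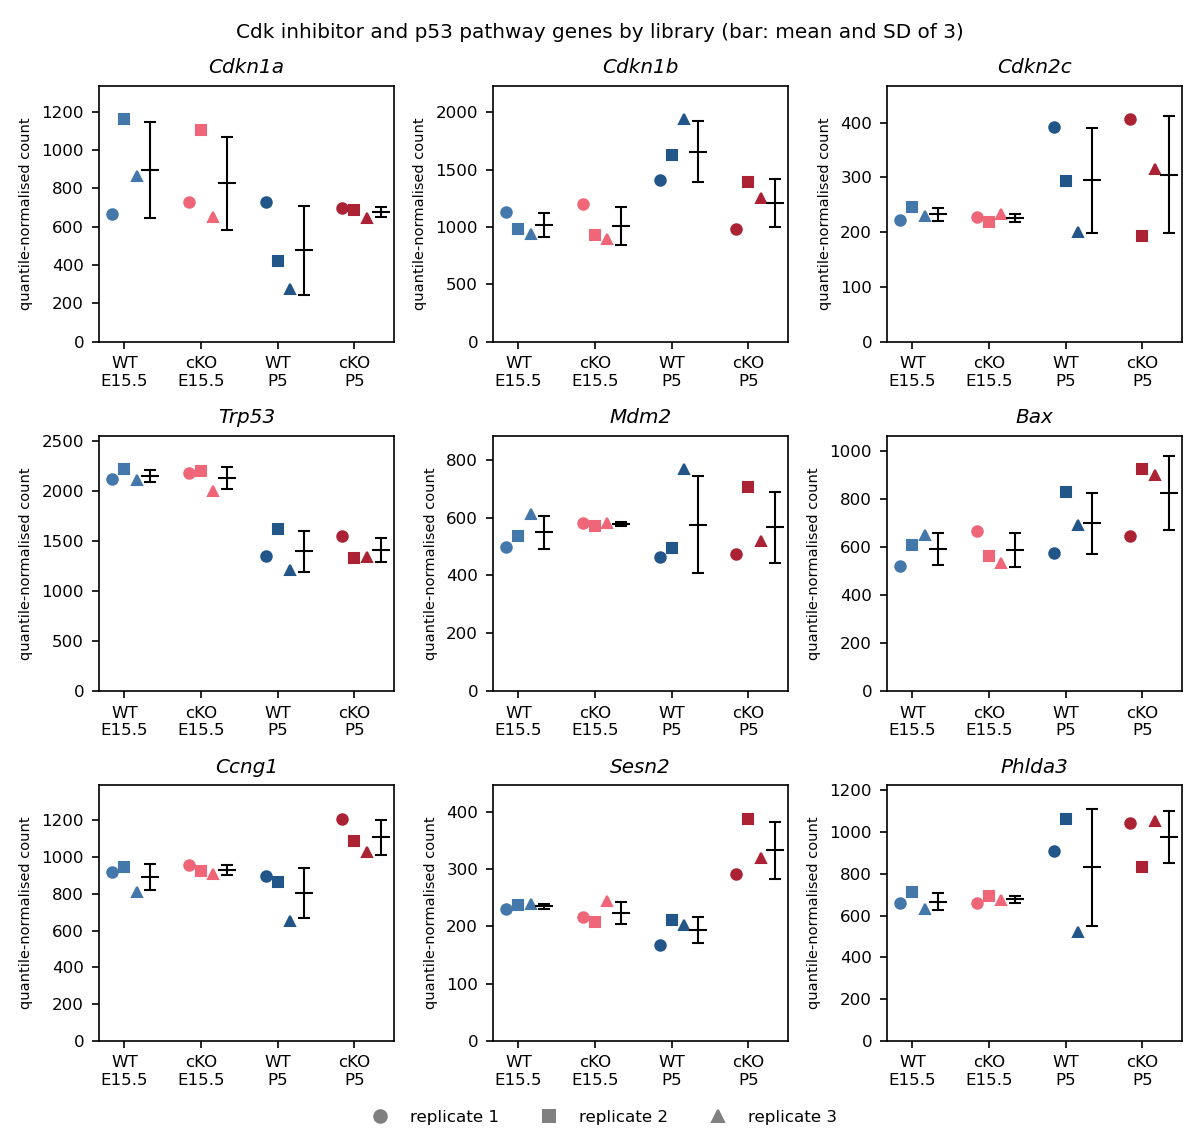
Quantile-normalised count (vertical axis, starting at 0) of the 9 genes in the 12 libraries, by group (horizontal axis). Symbols are the 3 replicates and the black bar is their mean and SD. Trp53 is lower in all P5 libraries than in all E15.5 libraries, and Sesn2 is highest in the 3 P5 libraries labelled cKO.

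Divided by exon length, the level of Trp53 stood highest in WT before birth and that of Sesn2 lowest at both ages. In WT at E15.5 the quantile-normalised count per kb of exon was 532 ± 15 (SD, n = 3) for Trp53, 428 ± 26 for Phlda3 and 377 ± 42.6 for Bax. Then came Ccng1 at 254 ± 20.3, Cdkn1a at 252 ± 70 and Cdkn1b at 224 ± 22.4, followed by Mdm2 at 108 ± 11.2, Cdkn2c at 86.5 ± 4.5 and Sesn2 at 67.8 ± 1.28 (all SD, n = 3). Phlda3 and Bax overlapped in their libraries, as did Ccng1, Cdkn1a and Cdkn1b with each other, so the order within those runs is not fixed beyond the spread. In WT at P5 the order was Phlda3 (533 ± 180), Bax (444 ± 80.5), Cdkn1b (364 ± 58.9), Trp53 (346 ± 51.2), Ccng1 (229 ± 38.5), Cdkn1a (134 ± 65), Mdm2 (113 ± 32.9), Cdkn2c (110 ± 35.7) and Sesn2 (55.8 ± 6.71, SD, n = 3). Each of the first 4 overlapped its neighbour there, and so did Ccng1, Cdkn1a, Mdm2 and Cdkn2c. Cdkn1b thus stood below Cdkn1a in mean level per kb in WT at E15.5 and above it at P5, where the 3 WT libraries of Cdkn1b (309 to 426) did not overlap those of Cdkn1a (78 to 205). In cKO at P5 the highest and lowest were again Phlda3 (627 ± 80.6) and Sesn2 (96 ± 14.4, SD, n = 3).

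Cdkn1a varied most over the 12 libraries, with a highest value 4.18 times the lowest, followed by Sesn2 (2.32 times), and Mdm2 varied least (1.65 times). WT P5 replicate 3, the library with the most photoreceptor signal, held the lowest value of all 12 for Cdkn1a, Trp53, Ccng1 and Phlda3 and the highest for Cdkn1b and Mdm2.

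Trp53 fell with age in both genotypes. Trp53 (ENSMUSG00000059552, chromosome 11, 69580359 to 69591873, GRCm38) had 2123.1, 2223.4 and 2113.7 quantile-normalised counts in WT and 2182.5, 2201.1 and 2001.7 in cKO at E15.5. At P5 it had 1356.4, 1622.6 and 1214.7 in WT and 1548.6, 1331.8 and 1346.9 in cKO. No P5 library reached the lowest E15.5 library. From E15.5 to P5 the log2 fold change in WT was -0.63 ± 0.11 (SE), and limma gave an adjusted p of 0.0016 over all genes tested. In cKO it was -0.60 ± 0.11, with 0.0019. The call was kept in 19 of 19 alternatives in both genotypes. An exact permutation test within genotypes, two-sided over 400 arrangements, gave 0.005 for the age difference, the smallest p it can give. The same test gave 0.01 for Cdkn1b and 0.035 for Bax, both higher at P5, and 0.055 or more for the other members, with no adjustment. Between genotypes Trp53 was not called, and the 95% interval of the log2 fold change was -0.27 to 0.23 at E15.5 and -0.23 to 0.27 at P5.

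Mdm2 did not pass with age in either genotype. Mdm2 (ENSMUSG00000020184, chromosome 10, 117688875 to 117710758) averaged 549 ± 57 (SD, n = 3) in WT and 579 ± 6.38 in cKO at E15.5, and 576 ± 167 and 567 ± 123 at P5. Its log2 fold change with age was 0.04 ± 0.20 (SE) in WT and -0.05 ± 0.20 in cKO, with 95% intervals of -0.40 to 0.48 and -0.49 to 0.39, neither called by limma. At P5 its libraries spread: 464.3, 495.3 and 768.2 in WT and 475.6, 706.3 and 518.3 in cKO. The highest values were those of the libraries with the most photoreceptor signal, WT replicate 3 and cKO replicate 2. With photoreceptor signal as a term in the model, Mdm2 was called lower at P5 in both genotypes (limma, -0.55 in WT on the log2 scale, adjusted p = 0.0147, and -0.67 in cKO, adjusted p = 0.00563). That signal (mean log2) was 5.67 to 5.73 at E15.5 and 7.56 to 12.12 at P5, so it does not overlap between the ages. Age changes with this term, here and below, therefore rest on extrapolation and cannot separate age from photoreceptor signal. Its adjusted p over all alternatives lay between 0.0147 and 0.953 in WT and between 0.00563 and 0.999 in cKO.

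Among the Cdk inhibitors in WT, with age, Cdkn1b rose, Cdkn1a fell and Cdkn2c did not pass the test. Cdkn1b (ENSMUSG00000003031, chromosome 6, 134920401 to 134925513) had 1134.3, 981.8 and 941 quantile-normalised counts in WT at E15.5 and 1406.3, 1627.1 and 1940.1 at P5. All P5 libraries lay above all E15.5 libraries, by 0.69 ± 0.17 on the log2 scale (SE, 1.62-fold), for which limma gave an adjusted p of 0.00881. Cdkn1a (ENSMUSG00000023067, chromosome 17, 29090976 to 29100727) had 665.8, 1159.6 and 862.3 in WT at E15.5 and 729.3, 420.7 and 277.1 at P5. These groups overlapped through replicate 1 of each. Its difference was -0.99 ± 0.33 on the log2 scale (SE, 1.98-fold lower), for which limma gave an adjusted p of 0.0356.

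The call of Cdkn1a in WT was lost in 6 of 19 alternatives. These were the fits without WT E15.5 replicate 2 (limma, -0.78 on the log2 scale, adjusted p = 0.132) or replicate 3 (-1, 0.0853), and without WT P5 replicate 2 (-0.96, 0.0877) or replicate 3 (-0.66, 0.0894). It was lost too with the WT libraries alone in the fit, at an unchanged fold change of -0.99 (adjusted p = 0.107), and with photoreceptor signal as a term (log2 fold change -0.31, adjusted p = 0.531). Over 19 alternatives its adjusted p lay between 0.00125 and 0.531. The Cdkn1b rise was kept in 18 of 19 alternatives and lost with photoreceptor signal as a term (log2 fold change 0.26, adjusted p = 0.223).

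In cKO the same 3 inhibitors did not pass with age. Cdkn1b went from 1201.4, 930 and 899.8 at E15.5 to 983.4, 1396.3 and 1257.8 at P5, groups that overlapped (0.26 ± 0.17 on the log2 scale, SE, limma adjusted p = 0.238). Cdkn1a went from 726.8, 1102.3 and 649.8 to 695.1, 684.9 and 646.8 (-0.25 ± 0.33, SE). The 3 P5 libraries labelled cKO were the tightest group for Cdkn1a, with an SD of 25.5 against 231 in WT at P5. Whether the age change differs between genotypes was tested by the interaction: 0.74 ± 0.46 (SE) for Cdkn1a and -0.43 ± 0.24 for Cdkn1b on the log2 scale, and limma gave both an adjusted p of 1. A difference between genotypes in these age changes was therefore not shown.

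Cdkn2c spread widely after birth. Cdkn2c (ENSMUSG00000028551, chromosome 4, 109660876 to 109667189) lay between 218.7 and 245.7 in all 6 E15.5 libraries. At P5 it stood at 391.6, 292.8 and 199.7 in WT and 406.3, 193.3 and 315 in cKO. In both genotypes the highest of these was the library of lowest photoreceptor signal (replicate 1), and the lowest was that of highest photoreceptor signal. The log2 fold change with age was 0.29 ± 0.28 (SE) in WT and 0.36 ± 0.28 in cKO, neither called. With photoreceptor signal as a term limma called Cdkn2c higher at P5 in both (1.17, adjusted p = 0.000528 in WT, and 1.28, adjusted p = 0.000308 in cKO). Library weights called it in WT as well (0.33, adjusted p = 0.0203). Its highest adjusted p over the alternatives was 0.903 in WT and 0.76 in cKO.

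Sesn2 was called with age in cKO and not in WT. Sesn2 (ENSMUSG00000028893, chromosome 4, 132492032 to 132510501) had 230.6, 238.1 and 238.5 quantile-normalised counts in WT and 217.1, 207.5 and 244.8 in cKO at E15.5. At P5 it had 167.7, 212.2 and 202 in WT, all below the E15.5 WT libraries, and 291.3, 388.8 and 320.4 in cKO, all above the E15.5 cKO libraries. It rose with age in cKO by 0.57 ± 0.15 on the log2 scale (SE, 1.49-fold, limma adjusted p = 0.0104). It did not pass in WT (-0.29 ± 0.15, adjusted p = 0.15). The call in cKO was lost with lens signal as a term, at a larger SE (0.61 ± 0.25, SE, limma adjusted p = 0.109). It was lost too with photoreceptor signal as a term (0.30, adjusted p = 0.193), while the lowest adjusted p of any alternative was 0.00696. Lens signal in cKO (mean log2) was 6.1 to 6.52 at E15.5 and 8.1 to 9.06 at P5. It does not overlap between the ages, so age changes in cKO with the lens term, here and below, also rest on extrapolation. The interaction of 0.86 ± 0.21 (SE) had an unadjusted p of 0.00189 in limma, rank 33 of 13523 genes, and an adjusted p of 0.751, with 0.171 to 1 over 18 alternatives.

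Ccng1, Phlda3 and Bax did not pass with age in either genotype. Ccng1 (ENSMUSG00000020326, chromosome 11, 40748552 to 40755311) averaged 892 ± 71.2 (SD, n = 3) and 805 ± 135 in WT and 930 ± 25.4 and 1107 ± 93.4 in cKO, at E15.5 and P5. In cKO its groups did not overlap (limma, 0.25 ± 0.13 on the log2 scale, SE, adjusted p = 0.144). It was called there with photoreceptor signal as a term (0.59, adjusted p = 0.00347) and without WT P5 replicate 3 (0.25, adjusted p = 0.0368), and stood at -0.06 with lens signal as a term (adjusted p = 0.841). Phlda3 (ENSMUSG00000041801, chromosome 1, 135766119 to 135769136) lay between 632 and 711.5 at E15.5, at 907.3, 1064.9 and 520.1 in WT at P5 and at 1045.1, 832.8 and 1055.3 in cKO at P5. WT replicate 3 alone lay below the E15.5 range. Without it limma called Phlda3 higher with age in WT (0.56 ± 0.12, SE, adjusted p = 0.004) and in cKO (0.52 ± 0.11, adjusted p = 0.0027, against 0.0764 with all libraries). With photoreceptor signal as a term it was called in both too (0.83 in WT and 1.12 in cKO), and with lens signal as a term its direction turned without a call (-0.09 and -0.31). Its highest adjusted p over the alternatives was 0.892 in WT and 0.286 in cKO.

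Bax (ENSMUSG00000003873, chromosome 7, 45461697 to 45466898) had 521.1, 608.3 and 653.2 quantile-normalised counts in WT and 668.9, 564.9 and 535.3 in cKO at E15.5. At P5 it had 576, 829.7 and 694.9 in WT and 648.2, 927.1 and 902.8 in cKO. Replicate 1 was the lowest P5 library in both genotypes and overlapped the E15.5 range. The log2 fold change with age was 0.23 ± 0.18 (SE) in WT and 0.47 ± 0.18 in cKO, where limma gave an adjusted p of 0.0513. In cKO it was called in 5 of 19 alternatives, among them the one without cKO P5 replicate 1 (0.64, adjusted p = 0.0124), and its highest adjusted p was 0.59.

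With age in WT, then, 1 of 9 genes rose and 2 fell, where limma called 38.2% of all genes tested, 15% higher and 23.2% lower. In cKO 1 rose and 1 fell, where 43.7% of all genes were called, 17.6% higher and 26.1% lower. The median log2 fold change of the 9 genes was 0.04 in WT and 0.26 in cKO, beside -0.07 and -0.08 over all genes. With 9 genes, the WT count is near the background share and the cKO count below it. Neither is read as a trait of these genes. Libraries of the 2 ages did not overlap for Cdkn1b (higher) and Trp53 and Sesn2 (lower) in WT, as for 48.7% of all genes, 19.3% higher and 29.4% lower. In cKO they did not overlap for Ccng1, Sesn2 and Phlda3 (higher) and Trp53 (lower), as for 57.9% of all genes, 23.8% higher and 34.1% lower. Without WT P5 replicate 3 the calls in cKO numbered 5 instead of 2, and without WT P5 replicate 2 they numbered 4. The age comparisons in the 2 genotypes share no libraries, but each shares its P5 or E15.5 libraries with the genotype comparisons below.

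**Figure D2:**
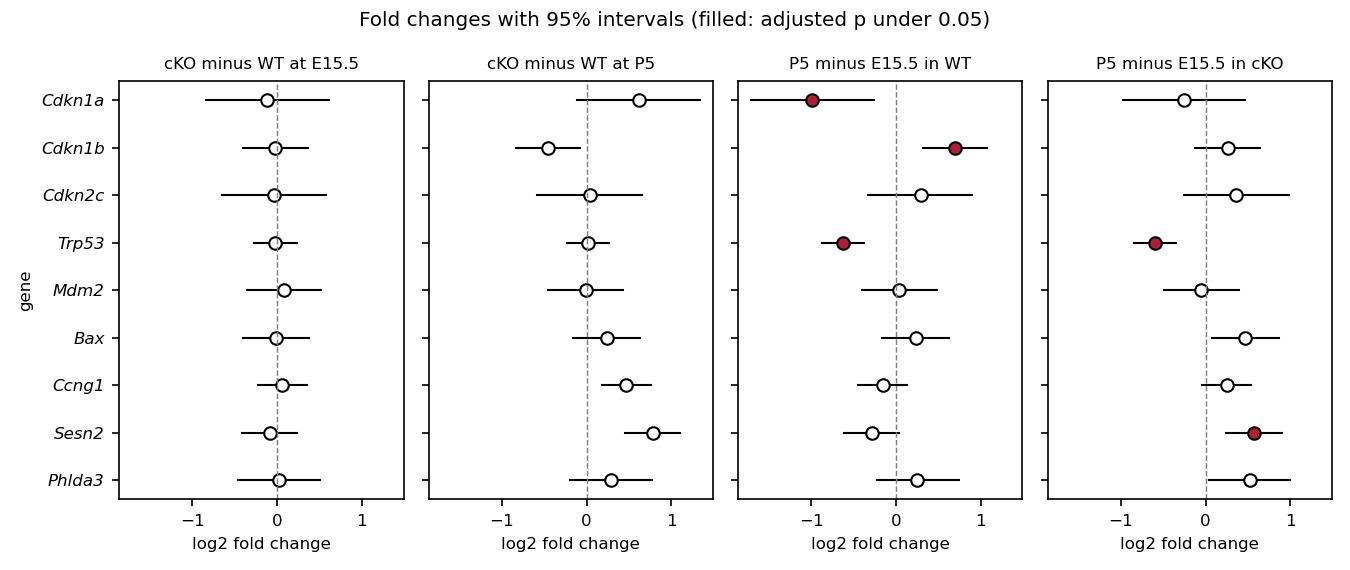
Log2 fold changes (horizontal axis) of the 9 genes (vertical axis) in the 4 comparisons, with 95% intervals from limma. Filled points passed an adjusted p of 0.05: Cdkn1a, Cdkn1b and Trp53 with age in WT, Trp53 and Sesn2 with age in cKO, and no gene between genotypes.

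At E15.5 no member differed between genotypes past the test. Their log2 fold changes (cKO minus WT) ran from -0.12 for Cdkn1a to 0.08 for Mdm2, with a median of -0.02 beside 0 over all genes. The libraries overlapped for all 9, whereas 5.1% of all genes showed no overlap. No member was called by limma, in a fit that called 0.00739% of all genes (1 gene). At an unadjusted p under 0.05 stood 0 members, beside 0.362% of all genes. The 95% intervals were narrowest for Trp53 (-0.27 to 0.23) and Ccng1 (-0.22 to 0.35) and widest for Cdkn1a (-0.84 to 0.61). These intervals use a spread shared by all 12 libraries, and the P5 libraries spread more. The test at E15.5 is thus a cautious one and that at P5 a lenient one. With the E15.5 libraries alone the SE of each member was smaller. It was 0.05 instead of 0.22 for Phlda3, 0.06 instead of 0.28 for Cdkn2c and 0.29 instead of 0.33 for Cdkn1a. No member was called there either.

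At P5 Sesn2 and Ccng1 had higher values in the libraries labelled cKO and Cdkn1b lower ones, without passing over all genes. No member was called by limma, where 0.244% of all genes were. An unadjusted p under 0.05 was found for 3 members and for 7.68% of all genes. Sesn2 averaged 194 ± 23.3 (SD, n = 3) in WT and 334 ± 50.1 in cKO, a difference of 0.78 ± 0.15 on the log2 scale (SE, 1.71-fold). Its unadjusted p of 0.000308 ranked 46 of 13523 genes in limma, with an adjusted p of 0.0891. Ccng1 had 898.6, 866.9 and 650.3 in WT and 1209.8, 1085.8 and 1026.7 in cKO (0.47 ± 0.13 on the log2 scale, SE, limma adjusted p = 0.318). Cdkn1b averaged 1658 ± 268 in WT and 1212 ± 210 in cKO (SD, n = 3). Its difference was -0.45 ± 0.17 on the log2 scale (SE, limma adjusted p = 0.547).

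The libraries of the genotypes did not overlap for these 3 genes at P5, as for 6.18% of all genes, 3.45% higher and 2.73% lower in cKO. An exact permutation test of 3 against 3 libraries gave 0.1 for each, the smallest p it can give. Cdkn1a, at 0.62 ± 0.33 on the log2 scale (SE), did not pass (limma adjusted p = 0.714). Its WT libraries fell in value in the order of rising photoreceptor signal (729.3, 420.7 and 277.1), and the difference was 0.29 without WT P5 replicate 3 and 0.98 without WT P5 replicate 1, called in neither. For Phlda3 the value of 0.29 ± 0.22 (SE) became -0.02 without that library. For Ccng1 it became 0.32 and for Sesn2 0.81. The other members had values of 0.24 ± 0.18 (Bax), 0.04 ± 0.28 (Cdkn2c), 0.02 ± 0.11 (Trp53) and -0.01 ± 0.20 (Mdm2), and the median of the 9 was 0.24 beside -0.02 over all genes.

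Whether Sesn2 and Ccng1 passed at P5 depended on the fit. With photoreceptor signal as a term, limma called Sesn2 (0.77 ± 0.12, SE, adjusted p = 0.0135) and Ccng1 (0.48 ± 0.09, adjusted p = 0.0237), in a fit that called 200 genes instead of 33. Without cKO P5 replicate 1 Sesn2 was called (0.87 ± 0.16, SE, adjusted p = 0.0376), where 132 genes were. With lens signal as a term neither passed (Sesn2 0.80 ± 0.19, adjusted p = 0.203, and Ccng1 0.28 ± 0.14, adjusted p = 0.582). With the P5 libraries alone in the fit neither passed, and 2 genes were called instead of 33. The SE was then 0.18 instead of 0.15 for Sesn2 and 0.16 instead of 0.13 for Ccng1. Lens signal was higher in 2 of 3 cKO libraries than in any WT library at P5. Over 19 alternatives the Sesn2 value stayed between 0.65 and 0.87 and the Ccng1 value between 0.28 and 0.56, with adjusted p-values from 0.0135 to 1 and from 0.0237 to 1.

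The interaction, which asks whether the genotype difference at P5 is unlike that at E15.5, called no member by limma, where 0.0592% of all genes were called. At an unadjusted p under 0.05 stood 2 members, Sesn2 and Ccng1, beside 2.65% of all genes. The Ccng1 interaction was 0.41 ± 0.18 on the log2 scale (SE). Taken over both ages, the exact permutation test within ages, two-sided, gave an unadjusted 0.025 for Ccng1 (mean difference 0.27 on the log2 scale), 0.085 for Sesn2 and 0.12 or more for the other members.

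**Figure D3:**
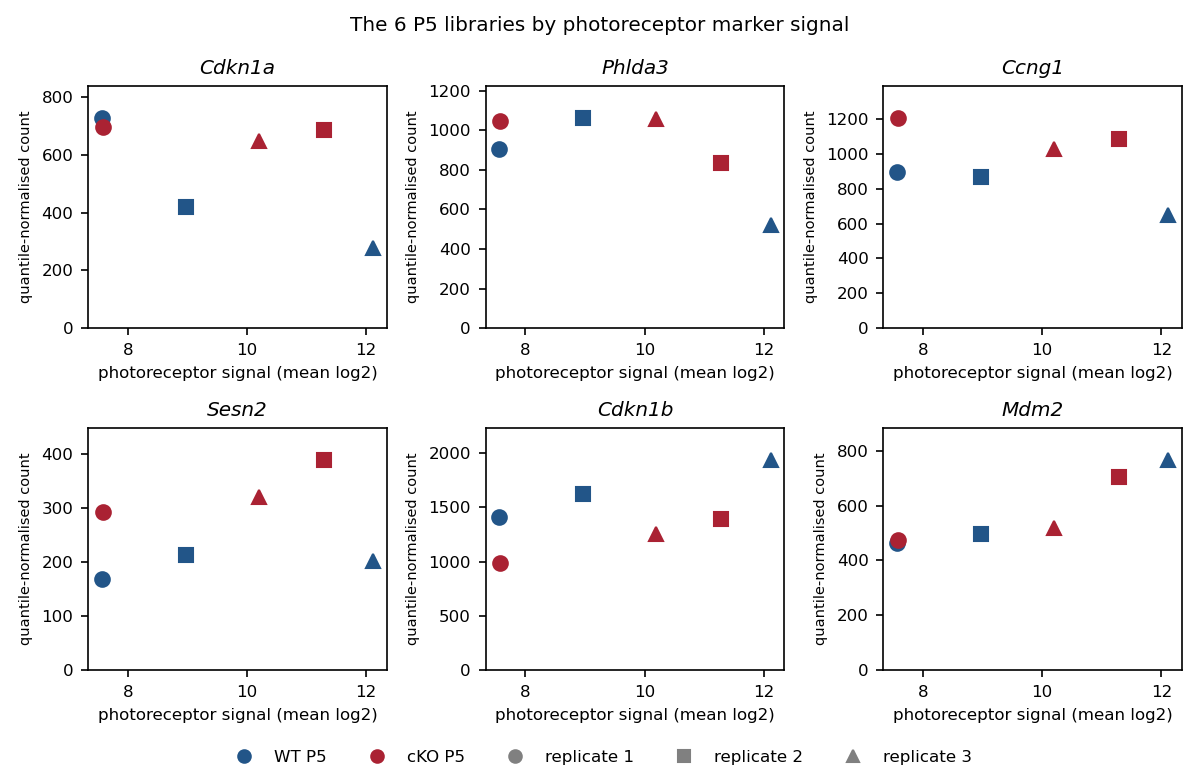
Quantile-normalised count (vertical axis, from 0) of 6 of the genes in the 6 P5 libraries against the mean log2 value of 14 photoreceptor markers (horizontal axis), WT in blue and cKO in red. Mdm2 is highest in the WT and cKO libraries with the most photoreceptor signal, while the 3 cKO libraries of Sesn2 lie above the 3 WT libraries. Only replicate 1 of WT and of cKO are close in signal (7.56 and 7.58).

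Most genes of the machinery that the inhibitors act on fell with age, where 23.2% of all genes fell in WT and 26.1% in cKO. Of 9 Cdk and cyclin genes, 7 fell and 0 rose in WT and 6 fell and 0 rose in cKO (medians -1.05 and -1.08). The G1/S cyclin Ccne1 fell by 1.93 ± 0.19 on the log2 scale (SE) in WT and by 1.69 ± 0.19 in cKO, and Ccna2 by 1.43 ± 0.22 and 1.42 ± 0.22. All 22 proliferation genes fell in both genotypes (medians -1.62 and -1.51). Markers of cell types moved with age as well, and their part in these falls was not tested. Of 10 endothelial markers 10 rose in WT and 7 in cKO. Of 6 glial markers 5 rose in both and 1 fell in cKO. Of 6 melanocyte markers 5 rose in WT and 2 in cKO, and 1 fell in both. RPE markers rose (10 of 12 in WT, 11 in cKO), as did photoreceptor markers (10 of 14 in both) and, in cKO, lens markers (11 of 13). Of 9 mesenchyme markers 2 rose and 2 fell in WT, and 1 rose and 2 fell in cKO. Of 9 muscle markers 3 fell in WT and 2 in cKO. Of 7 erythroid markers 5 fell in WT and 6 in cKO. The summed erythroid value was 17514 to 23521 at E15.5 and 3827 to 9537 at P5, and the summed endothelial value was 8863 to 10834 and 16880 to 41022. Of 11 pocket protein and E2F genes, 8 fell and 1 rose in WT and 7 fell in cKO, with the cell cycle repressor E2f7 at -2.06 ± 0.27 and -2.07 ± 0.27. Between genotypes limma called no Cdk, cyclin, proliferation, pocket protein or E2F gene at either age. It called 0.00739% of all genes at E15.5 and 0.244% at P5. At such shares lists of this size are expected to hold no call. Of the 12 RPE markers, 1 was called lower in cKO at E15.5 and 0 at P5. The D-type cyclin Ccnd1 had the largest value of its list at P5, -0.76 ± 0.23 (SE, adjusted p = 0.401).

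Skp2, the F-box protein that marks p27 for destruction, fell most among the genes of p27 turnover. It had 977.2, 1101.3 and 1178.3 quantile-normalised counts in WT at E15.5 and 115.4, 120.2 and 122.7 at P5. It fell by 3.17 ± 0.23 on the log2 scale in WT (SE, limma adjusted p = 8.37e-06) and fell by 3.11 ± 0.23 in cKO. Its cofactor Cks1b fell by 1.41 ± 0.16 in WT and 1.35 ± 0.16 in cKO. Rnf123, a subunit of another ligase for p27, rose in cKO (0.33 ± 0.12) and did not pass in WT (0.25 ± 0.12). Of the other Cdk inhibitor genes 2 of 4 were measured. Cdkn1c, which encodes p57, fell from 19027 ± 1594 to 5438 ± 324 in WT and from 18503 ± 1370 to 5649 ± 1236 in cKO (SD, n = 3). Its log2 fold changes were -1.81 ± 0.16 and -1.73 ± 0.16 (SE, limma adjusted p = 2.96e-05 and 3.54e-05). Cdkn2d, which encodes p19, did not pass (0.06 ± 0.14 and 0.17 ± 0.14).

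Of 15 genes of the p53 family and its regulators, 4 fell and 0 rose with age in WT and 6 fell and 1 rose in cKO (medians -0.28 and -0.30). In WT that share of falls is near the 23.2% of all genes. The checkpoint kinase Chek1 fell by 2.32 ± 0.16 on the log2 scale (SE) in WT and fell by 2.13 ± 0.16 in cKO. The p53 relative Trp63, known from surface epithelia, went from 528.1, 542 and 408.6 in WT at E15.5 to the lowest value of the table in all 6 P5 libraries, and Trp73 was at that value in all 6 as well. The DNA damage kinase Atm fell in cKO (-1.32 ± 0.29, SE).

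The share of other p53 targets called with age was near or below that of all genes (38.2% in WT and 43.7% in cKO). Of 16 arrest and repair targets, 1 rose and 2 fell in WT (median -0.16) and 1 rose and 3 fell in cKO (median -0.05). Those that fell in WT were Gtse1, a mitotic protein that restrains p53 (-1.71 ± 0.35, SE), and the phosphatase Ptpn14 (-1.03 ± 0.35), and the one that rose was the ribonucleotide reductase subunit Rrm2b (0.41 ± 0.14). Of 10 cell death targets measured, 0 rose and 3 fell in WT and 1 rose and 2 fell in cKO. Apaf1, the core of the apoptosome, fell by 0.83 ± 0.12 in WT and by 1 ± 0.12 in cKO. Perp, a desmosome-associated target, rose in cKO (1.10 ± 0.41, SE, limma adjusted p = 0.0496). At P5 it had 976.4, 1207.2 and 354.8 in WT and 1459.6, 1669.2 and 2863.8 in cKO, which did not overlap, with a genotype difference of 1.35 ± 0.41 that did not pass (adjusted p = 0.39). Neither target list had a member called between genotypes at either age, where 0.00739% of all genes were called at E15.5 and 0.244% at P5.

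Among the relatives of Bax and Sesn2 the share called with age was near or below that of all genes (38.2% in WT and 43.7% in cKO). Of 11 BCL2 family genes measured, 1 rose and 1 fell with age in WT and 2 rose and 2 fell in cKO. The cell death activator Bmf fell in both (-0.85 ± 0.26 and -1.27 ± 0.26, SE), and the survival gene Bcl2l2 rose in both (0.44 ± 0.11 and 0.43 ± 0.11). Among 10 sestrin and GATOR genes, through which sestrins act on mTORC1, 1 rose and 2 fell in WT and 1 rose and 3 fell in cKO. Sesn1, a p53-dependent sestrin, had a genotype value at P5 of -0.35 ± 0.16 (SE, limma adjusted p = 0.654), opposite in sign to that of Sesn2. No gene of either list was called between genotypes by limma, where 0.00739% of all genes were called at E15.5 and 0.244% at P5.

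**Figure D4:**
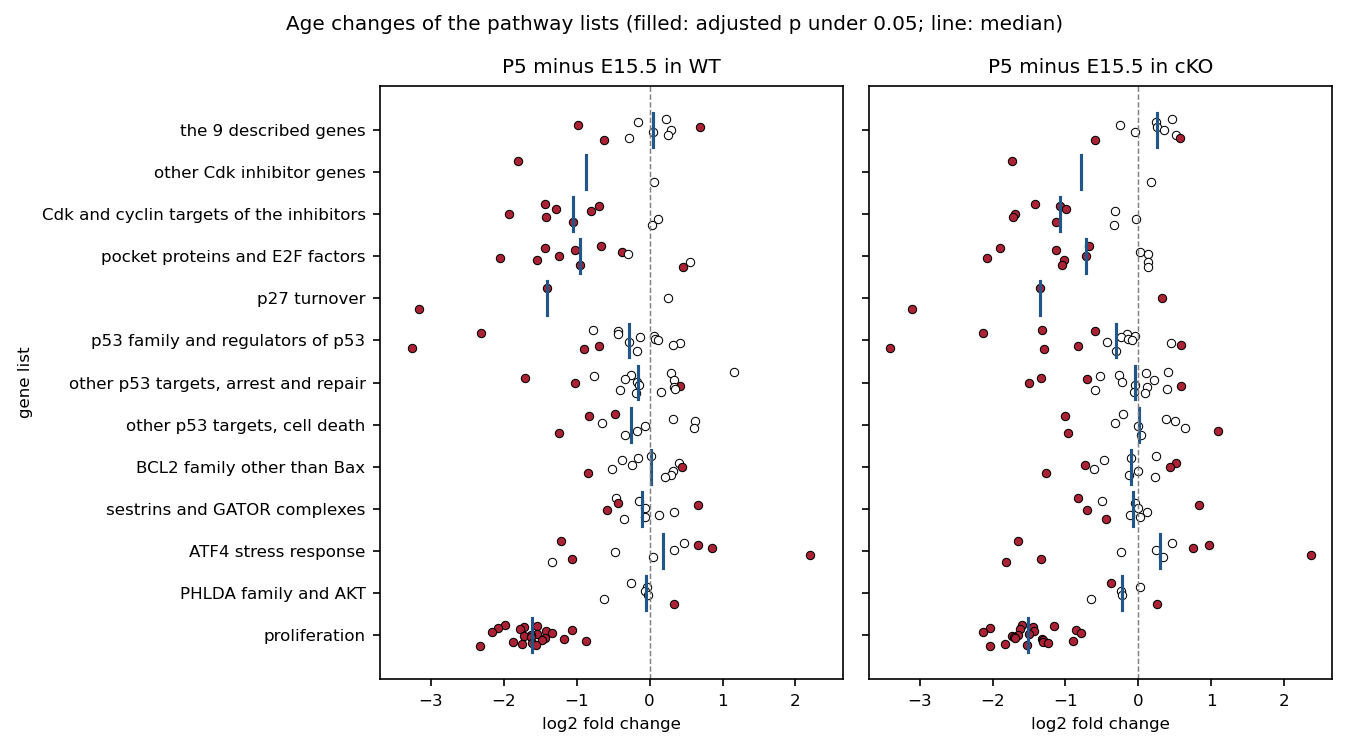
Log2 fold change from E15.5 to P5 (horizontal axis) of each gene tested in 13 lists (vertical axis), WT on the left and cKO on the right. Filled points passed an adjusted p of 0.05 by limma and the blue line is the list's median. All 22 proliferation genes are filled and lower at P5, while the 9 described genes lie on both sides of 0.

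Patterns most like those of the members were searched among 12287 genes, by the root mean square difference of log2 values centred on each gene's mean over the 12 libraries. For Cdkn1a the nearest genes were Gli1 (0.204), Hspb1 (0.231) and Pdlim3 (0.251), where the median over all genes was 0.589. For Trp53 they were Utp11l (0.07), Hdac1 (0.073) and Rpl6 (0.076), with a median of 0.41. Sesn2 had Med25 (0.112), Ampd2 (0.154) and Setd6 (0.17) nearest, with a median of 0.485. For Bax they were Timm8b (0.057), Fis1 (0.064) and Ndufb3 (0.07), and for Phlda3 Lnx2 (0.061), Btd (0.074) and Syngr2 (0.087). Cdkn1b was nearest to Lmtk2 (0.141), Fnip1 (0.145) and Slc20a1 (0.147), and Cdkn2c to Pqlc1 (0.104), Lamp1 (0.115) and Pam (0.123). Mdm2 was nearest to Ppm1b (0.093), Kctd13 (0.095) and Dlgap4 (0.096), and Ccng1 to Scarf2 (0.1), Alas1 (0.109) and Zhx2 (0.12). No member was among the nearest of another member. All points share the 12 libraries and the difference between ages.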

How the data were processed

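Each value of the deposited table is a signal that the authors made from gene counts by quantile normalisation with values under 50 set to 50, per the file's name. The sorted values were checked to be the same in all 12 columns, 9.87% of each at 50. Reads were aligned with TopHat2 2.0.10 to mm10 and counted with HTSeq, per the submitters' processing notes. No source used here gives the annotation release or strand setting. Genes above 50 in at least 3 libraries (13523) were tested on log2(value + 1) with limma 3.58.1 in R 4.3.3: 1 mean per group over 12 libraries, moderated variances with a trend, two-sided, Benjamini-Hochberg adjustment over all genes, called under 0.05. Fold changes are on that scale. The fit was tested on simulated data with 1 spread per gene in all groups. That test does not cover the wider spread at P5. Positions and exon lengths come from GENCODE M21 (GRCm38), windows from RefSeq. Replicate numbers were not used to pair the libraries. Named were all members, up to 4 genes per pathway list (called first, then by size) and the 3 nearest genes per member. Members and lists were chosen with earlier results of these data known.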

Additional observations from a re-analysis of the deposited data

Results flagged for a closer look

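Sesn2 stood out because its age change went opposite ways in the genotypes: every P5 library lay below every E15.5 library in WT and above every E15.5 library in those labelled cKO. The test of that difference, the interaction in limma, gave 0.86 ± 0.21 on the log2 scale (SE) with an unadjusted p of 0.00189 and an adjusted p of 0.751, which did not pass.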

How the results depend on the processing

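Over the alternatives, 846 member values were recomputed: 9 lost a call, 23 gained one and 1 reversed with a call, Mdm2 with age in WT, from 0.04 to -0.55 with photoreceptor signal as a term. A further 66 values, not called in either fit, changed sign. The replicate block gave 0 members called at either age for genotype, 3 with age in WT and 3 in cKO, with 18 instead of 33 genes called at P5. The main fit did not take the numbers as a pairing, and correlations between libraries cannot decide whether they are one. Between P5 WT and P5 cKO the correlations of same-numbered libraries were 0.783, -0.297 and 0.185, and 3 of 6 libraries correlated best with their own number. Between E15.5 and P5 this held for 4 of 6 libraries in WT and 0 of 6 in cKO. Photoreceptor signal as a term gave 2 members at P5 (and 200 genes), 5 with age in WT and 5 in cKO. This signal does not overlap between the ages, so the age counts rest on extrapolation. In cKO the same holds for lens signal (mean log2 6.1 to 6.52 at E15.5 and 8.1 to 9.06 at P5). Lens signal as a term gave 1 member with age in cKO (and 2964 genes instead of 5905), 3 genes instead of 1 at E15.5 and 5 instead of 8 for the interaction. Library weights, whose estimation stopped before convergence, gave 6 members with age in WT (and 9606 genes instead of 5171), and 14 genes at E15.5, 59 at P5 and 32 for the interaction. The 6 P5 libraries alone gave 2 genes. Leaving out 1 library at a time gave 1 to 4 genes at E15.5, 12 to 132 genes and 0 to 1 members at P5, 2 to 3 members with age in WT, 2 to 5 in cKO and 4 to 24 genes for the interaction. The cause of these shifts was not tested. Another pseudocount (50) and no filter changed no count of members. The depth is unknown, so no counting error could be given.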

Other observations

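Of 10 genes tested from the ATF4 stress response, which answers to amino acid shortage and also acts on Sesn2, 3 rose and 2 fell with age in WT and 3 rose and 3 fell in cKO, beside 38.2% of all genes called in WT and 43.7% in cKO. Nupr1, a stress-induced chromatin protein, rose by 2.20 ± 0.18 (log2 fold change, SE) in WT and by 2.37 ± 0.18 in cKO. The asparagine synthetase Asns fell by 1.22 ± 0.18 in WT and by 1.65 ± 0.18 in cKO, and the serine synthesis enzyme Psat1 by 1.06 ± 0.13 and 1.33 ± 0.13. No gene of this list was called between genotypes at P5 by limma, where 0.244% of all genes were. The median log2 fold change of the list there was -0.01. Akt1, a kinase that Phlda3 restrains, fell with age in cKO (-0.38 ± 0.12, SE) and did not pass in WT (-0.26 ± 0.12).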
